A study of Mus musculus with 4 samples.

Results

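The cells described here are maturing cerebellar granule neurons of mouse tumours driven by an active form of Smoothened, picked by transcripts of Grin2b, Kcna1, Kcnk1 and Unc5c. A cell was taken as a member when these 4 genes had 4 or more unique molecular identifiers (UMIs, each standing for a captured transcript) in total and the dividing-cell genes Mki67 and Top2a had at most 2 together. The rule found 1992 members among 31150 cells kept from 4 single-cell RNA libraries. The kept cells had 500 or more UMIs, 300 or more genes detected and at most 20% mitochondrial UMIs. All 4 libraries came from fresh tumour tissue labelled MB, taken at end point, and carried fSMO-M2, a Cre-dependent active Smoothened allele, with hGFAPcre, a Cre recombinase under a human GFAP promoter. The groups called SG held nothing further, and the groups called YSG also carried fYap1, a floxed Yap1 allele, and were described as rescued. There was 1 male and 1 female library of each genotype, so a difference between genotypes has no replicate check and was not tested. Genotype cannot be told apart from the animals, their ages or the capture run, none of which is given in the sources used here. Intervals below are exact 95% intervals that cover counting error only, except those of a difference between log2 ratios, which use a normal approximation to the same error. Unless stated otherwise, 4 values in a row give males first (SG, then YSG) and females after them in the same order.

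Granule neuron progenitors divide at the surface of the young cerebellum in response to Sonic hedgehog, which acts through Smoothened. When they leave the cell cycle they first extend axons and express adhesion and guidance genes such as Cntn2 and Robo3, and then migrate inwards, form synapses and gain the ion channels of mature neurons. In hedgehog-driven medulloblastoma most cells stay progenitor-like, and a minority go part of the way along this path. Each gene of the rule belongs to the later steps. Grin2b encodes an NMDA receptor subunit typical of young neurons, Kcna1 a voltage-gated potassium channel of axons, Kcnk1 a two-pore-domain potassium channel and Unc5c a netrin receptor that guides migrating granule cells. In the mm10 build Grin2b lies on chromosome 6 at 135713233 to 136173511 and Kcna1 on chromosome 6 at 126640397 to 126646384, both on the minus strand. Unc5c lies on chromosome 3 at 141465216 to 141834924 and Kcnk1 on chromosome 8 at 125995170 to 126030685, both on the plus strand.

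Members were 240 of 8419 cells in SG males, 464 of 7882 in YSG males, 250 of 7656 in SG females and 1038 of 7193 in YSG females. The shares were 2.85% (2.51 to 3.23%), 5.89% (5.38 to 6.43%), 3.27% (2.88 to 3.69%) and 14.4% (13.6 to 15.3%). The YSG female library stood highest, and both YSG libraries lay above both SG libraries. Among males the YSG share was 2.07-fold (1.76 to 2.42) that of SG, and among females 4.42-fold (3.85 to 5.09). Members were not deeper than other cells where their share was highest, with a median of 6042.5 UMIs in YSG females against 6800 in the other cells of that library. In the other libraries the members' medians were 7387.5, 6520.5 and 8533.5 UMIs, against 6189, 5855.5 and 7411 in the other cells. With each cell thinned to 6000 UMIs, and 4013, 4082, 2678 and 2999 shallower cells left out, the shares were 1.36%, 2.84%, 1.39% and 8.25%. After thinning, YSG exceeded SG 2.09-fold (1.51 to 2.91) among males and 5.95-fold (4.58 to 7.82) among females. The share of dividing cells, those with 5 or more UMIs of Mki67 and Top2a, was 33.1%, 27.6%, 37.6% and 22.6%, lower in the YSG library of each sex.

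The size of the male difference rested on Kcnk1. With the other 3 genes alone and a limit of 3 UMIs, 171, 173, 188 and 610 cells were found, which was 2.03%, 2.19%, 2.46% and 8.48% of the cells. The male fold then was 1.08 (0.870 to 1.34), an interval that holds 1, and the female fold 3.45 (2.93 to 4.09). Leaving out Grin2b, Kcna1 or Unc5c in the same way gave male folds between 2.09 and 2.36 and female folds between 3.87 and 5.37. Kcnk1 was also higher in the YSG cells outside the rule, at 78.5 and 97.6 CPM (UMIs of a gene scaled to a common total per set of cells) in males and females against 31.8 and 29.4 CPM in the SG cells. Members that passed on Kcnk1 UMIs alone numbered 19, 100, 25 and 152, which was 7.92%, 21.6%, 10.0% and 14.6% of the members.

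**Figure D1:**
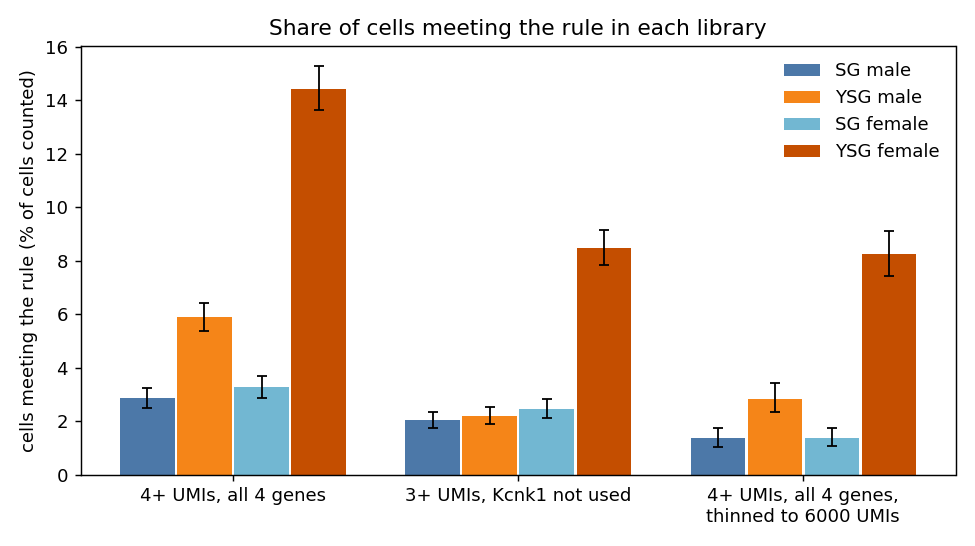
Bars give the percentage of cells that meet the rule in each of the 4 libraries, with exact binomial intervals for counting error, under the rule as stated, with Kcnk1 left out, and after thinning to 6000 UMIs per cell. The YSG female bar is the highest in each set, at 14.4%, 8.48% and 8.25%, while the male bars nearly meet when Kcnk1 is left out (2.03% and 2.19%).

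The 4 rule genes chose the members, so their levels describe the choice and support nothing further. Kcnk1 held the most rule UMIs, 47.7%, 64.8%, 43.8% and 53.0% of them, and was found in 85.6 to 95.7% of the members. Grin2b was at 165, 96.8, 172 and 115 CPM in the members, lower in both YSG libraries. Unc5c was at 152, 78.6, 153 and 156 CPM, low in YSG males alone. Kcna1 was at 44.7, 42.1, 41.5 and 116 CPM, and 47.4% of the YSG female members had a Kcna1 UMI against 21.2 to 23.8% in the other libraries. Members with UMIs of at least 3 of the 4 genes made up 48.3%, 27.8%, 40.4% and 50.6%, the lowest share being that of YSG males. Over all kept cells, whether members or not, the YSG over SG fold in males was 1.24 (1.15 to 1.34) for Grin2b, 2.14 (1.79 to 2.57) for Kcna1, 2.47 (2.37 to 2.58) for Kcnk1 and 1.09 (0.989 to 1.20) for Unc5c. In females the same folds were 1.79 (1.67 to 1.93), 9.53 (8.27 to 11), 3.99 (3.83 to 4.15) and 3.01 (2.80 to 3.25). The female fold was larger than the male one for each of the 4 genes, most of all for Kcna1.

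With depth held equal, another rule gene was found more often in cells with a given rule gene than in cells without it. Among cells thinned to 3000 UMIs with at most 1 mitotic UMI, another rule gene was found in 66.7%, 73.4%, 77.3% and 81.0% of the cells with Kcna1, and in 18.9%, 32.0%, 17.4% and 40.1% of the cells without it. For Unc5c the shares were 51.1%, 61.1%, 51.3% and 73.7% with the gene and 16%, 30.4%, 14.4% and 37.8% without it. For Grin2b they were 37.8%, 47.7%, 37.5% and 71.6% with the gene and 14.1%, 27.7%, 13% and 38.8% without it. For Kcnk1 they were 28.3%, 22.2%, 26.1% and 38.7% with the gene and 8.12%, 9.80%, 7.78% and 15.6% without it, so most cells with Kcnk1 held no other rule gene at this depth. Free RNA and doublets can also bring a cell past the limit. Of the cells that should lack these genes, 5 of 99 leukocytes (5.05%, 1.66 to 11.4%, median depth 2996 UMIs) and 2 of 41 endothelial cells (4.88%, 0.596 to 16.5%, median depth 7322 UMIs) had 4 or more rule UMIs. In YSG females alone 4 of 44 leukocytes passed (9.09%, 2.53 to 21.7%). The SG member shares lay below the pooled values and the YSG male share inside their intervals. The YSG female share lay inside the interval of its own leukocytes. These background counts had no mitotic limit, so the measures differ. Without that limit 367, 713, 458 and 1368 kept cells had 4 or more rule UMIs, more than the members. The comparison of shares therefore cannot by itself set the members apart from background in any library. Among oligodendrocytes, which use some of these genes, 29 of 162 (17.9%, 12.3 to 24.7%) passed the limit.

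Several granule lineage genes that the rule did not use were high in the members, though not all were. Neurod1, a transcription factor of differentiating granule neurons, was at 552, 491, 585 and 697 CPM in members against 149, 245, 140 and 322 CPM in the other cells. Zic1, a marker of the lineage, was at 1028, 896, 1007 and 930 CPM, and the neuronal splicing factor Rbfox3 at 177, 194, 187 and 185 CPM. Slc17a6, the glutamate transporter VGLUT2, was at 403, 382, 422 and 455 CPM in members against 153, 246, 136 and 291 CPM in the other cells. Barhl1, also listed for the lineage, was at 209, 209, 213 and 186 CPM against 195, 215, 173 and 204 CPM, lower in both YSG member sets. Pax6 differed less, at 287, 257, 273 and 329 CPM against 241, 247, 241 and 303 CPM. Zic4 was slightly lower in YSG male members, at 99.5 against 102 CPM. All but 1, 2, 2 and 1 members had a UMI of a granule lineage marker. The other cells also held these markers, with Zic1 at 459, 672, 455 and 614 CPM, so this count does not set the members apart. Progenitor and hedgehog genes went the other way: Atoh1 was at 9.41, 20.1, 14.0 and 14.2 CPM in members against 28.2, 39.0, 29.4 and 35.1 CPM in the other cells, and Gli1 at 3.77, 4.65, 10.3 and 3.85 CPM against 36.2, 21.7, 46.0 and 20.2 CPM. Of the 18 genes listed for late granule neurons, 6 reached 20 CPM in a member set. Each of these was higher in members than in the other cells of all 4 libraries. The filter of 20 CPM was set on the members, which favours genes high in them, so this count over the list is a description only. Synpr, a synaptic vesicle protein of this list, was at 21.7, 20.3, 24.6 and 31.0 CPM against 5.18, 11.9, 3.79 and 15.4 CPM. Gabra6, the GABA receptor subunit that marks the mature internal granule layer, had 0 UMIs in all 4 member sets, and Cbln3 had 0, 3, 0 and 2. The label of maturing granule neurons thus fitted the differentiation genes and a part of the lineage genes, while these 2 markers of mature granule neurons were at or near 0.

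The members overlapped broadly with the step before. Of the members, 60.4%, 42.5%, 62.0% and 48.7% also had 4 or more UMIs of Cntn2 and Robo3, the genes of newly postmitotic granule cells. Compared with early postmitotic cells outside the rule (4 or more Cntn2 and Robo3 UMIs, under 4 rule UMIs), Neurod1 was higher in the members of each library, at 552, 491, 585 and 697 CPM against 313, 470, 301 and 582 CPM. Cntn2 was lower, at 656, 451, 691 and 517 CPM against 808, 786, 777 and 849 CPM, though the early set was picked by that gene. Snap25, a core protein of synaptic vesicle release, was at 211, 208, 223 and 224 CPM in members and 193, 201, 213 and 191 CPM in the early set, a small step.

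**Figure D2:**
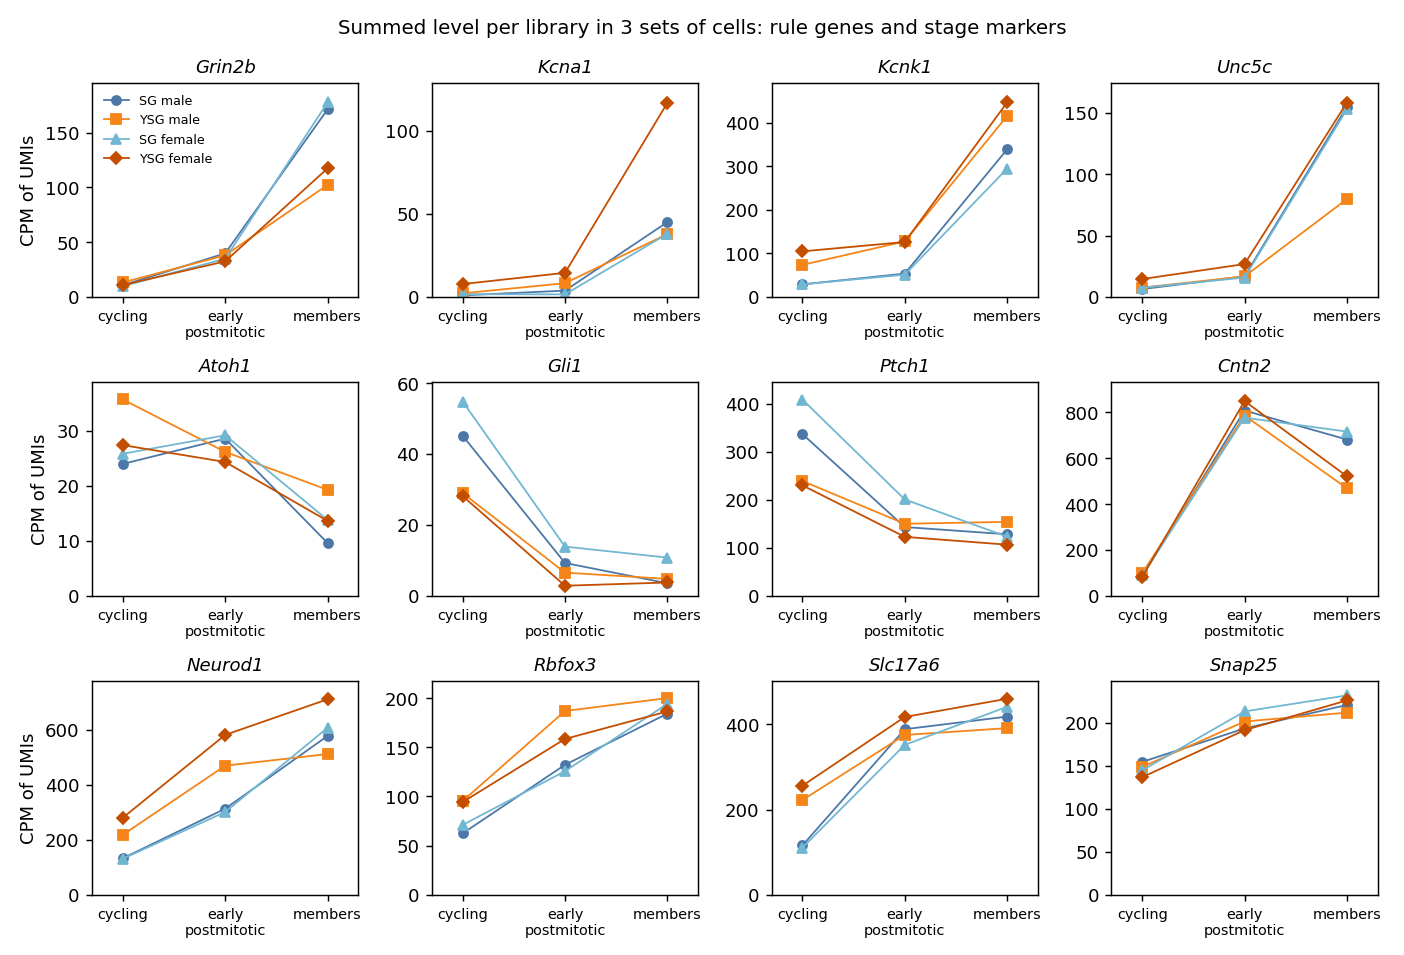
Each panel gives the summed level of a gene in CPM for dividing cells, early postmitotic cells and members (members with markers of other cell types left out), with 1 line per library. Neurod1 climbs from left to right and Gli1 falls from dividing cells to the later steps in all 4 libraries, and the member level of Kcna1 is highest in YSG females.

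Cells just outside and just inside the limit of the rule had similar lineage levels. In SG males, cells with 3 rule UMIs had Neurod1 at 420 CPM and those with 4 at 545 CPM, and in YSG males the 2 values were 461 and 477 CPM. In females they were 467 and 508 CPM for SG, and 603 and 647 CPM for YSG. Cells at 3 UMIs numbered 153, 309, 127 and 438, and cells at 4 numbered 72, 193, 79 and 281. Pnoc, described below, was at 269, 91.6, 239 and 85.0 CPM at 3 UMIs and at 427, 94.6, 366 and 120 CPM at 4, higher inside the limit in all 4 libraries.

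Few members carried clear markers of another cell type. Members with 3 or more UMIs of defining markers of other cells, or 10 or more UMIs of myelin genes, were 11, 18, 9 and 19 in number, which was 4.58%, 3.88%, 3.60% and 1.83% of the members. The astroglial ones (by Aqp4, Gja1, Gfap and Aldh1l1) numbered 7, 6, 4 and 3, the oligodendrocyte ones 2, 10, 4 and 10 and the oligodendrocyte precursor ones 3, 6, 4 and 6. Of the 10 inhibitory neuron markers listed, Slc32a1 and Pax2 had 0 UMIs in all 4 member sets, and Gad1 had 1, 5, 2 and 1. The summed level of all 10 was nevertheless higher in members, at 156, 218, 172 and 132 CPM against 114, 172, 107 and 126 CPM in the other cells. The summed level of 10 astroglial markers was 1371, 469, 1044 and 415 CPM in all members and 447, 448, 482 and 369 CPM without the marked cells. That of 9 oligodendrocyte markers was 179, 335, 892 and 145 CPM, and 35.8, 71.0, 41.4 and 72.5 CPM without them. These few cells decided some of the gene ratios below, so several ratios are also given without them. No cell barcode of a member occurred among the members of another library, and 9 to 21 barcodes were shared between any 2 libraries. A doublet caller marked 0 cells by its own threshold in 3 libraries and 931 (12.9%) in YSG females, and the members' part of the highest scores was 4.40 to 5.39%, against 4.70 to 5.52% of all cells.

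The genes highest in the members relative to the other cells are given as a description, since the members were chosen on the same cells. Of 7338 genes at 20 CPM or more in at least 1 member set, 121 were over 2-fold higher in members than in the other cells of all 4 libraries, and 51 were over 2-fold lower. The 12 that led by their lowest ratio were Pnoc, the precursor of the neuropeptide nociceptin, Galr1, a receptor for galanin, Ryr2, a calcium release channel, Cadm2 and Nfasc, both cell adhesion molecules, Arpp21, a neuronal phosphoprotein, Elmo1, an activator of Rac signalling, Gprin3, the noncoding RNA gene Tunar and the unnamed gene models Gm47664, Gm26871 and 6430548M08Rik. Nfasc was at 65.9, 39.2, 66.1 and 37.4 CPM in all members and at 34.3, 23.0, 37.5 and 28.6 CPM without the marked cells. Pnoc was at 428, 92.4, 506 and 149 CPM in members against 32.1, 17.5, 30.7 and 35.8 CPM in the other cells. Galr1 was at 32.9, 54.1, 34.9 and 66.3 CPM against 2.69, 14.7, 2.41 and 16.6 CPM. Arpp21 was at 162, 137, 178 and 204 CPM against 25.5, 43.3, 25.8 and 66.4 CPM. In each of these 3 genes the members stood above the other cells in all 4 libraries, with the widest gaps in SG.

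Between genotypes the members' profiles were close, and a modest set of genes differed in the same direction in both sexes. For each gene the UMIs of all members of a library were summed, scaled to CPM and compared as a log2 ratio of YSG over SG after adding 1 CPM, so that ratios of genes with few UMIs come out too small. Genes that reached 20 CPM only in YSG or only in SG lean towards that genotype through the filter, which also bears on the list medians below. In males 86 of the 7338 genes were over 2-fold higher in YSG, a background of 1.17%, and 100 were over 2-fold lower, 1.36%. In females 84 were higher, 1.14%, and 102 lower, 1.39%. In both sexes 27 were higher (0.368%) and 56 lower (0.763%), and 7 went past 2-fold in opposite directions. The median ratio of all genes was 0.02 in males and -0.02 in females. Without the marked cells of other types, 31 of 7253 genes (0.427%) were higher in both sexes and 41 (0.565%) lower, and the single-sex shares were 1.27% higher and 1.2% lower in males, and 1.28% and 1.09% in females. Among cells picked without Kcnk1 the counts in both sexes were 33 (0.443%) and 29 (0.389%) of 7452, with 2.05% higher and 1.29% lower in males, and 1.45% and 1.54% in females. The other cells had 73 of the 7338 genes (0.995%) higher and 58 (0.79%) lower in both sexes, from 1.5% and 1.39% in males and 2.38% and 1.17% in females. Male and female ratios correlated across genes with Pearson's r of 0.44 in members and 0.71 in the other cells, a description over genes that share their libraries and are not independent replicates. The male and female comparisons share no library.

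**Figure D3:**
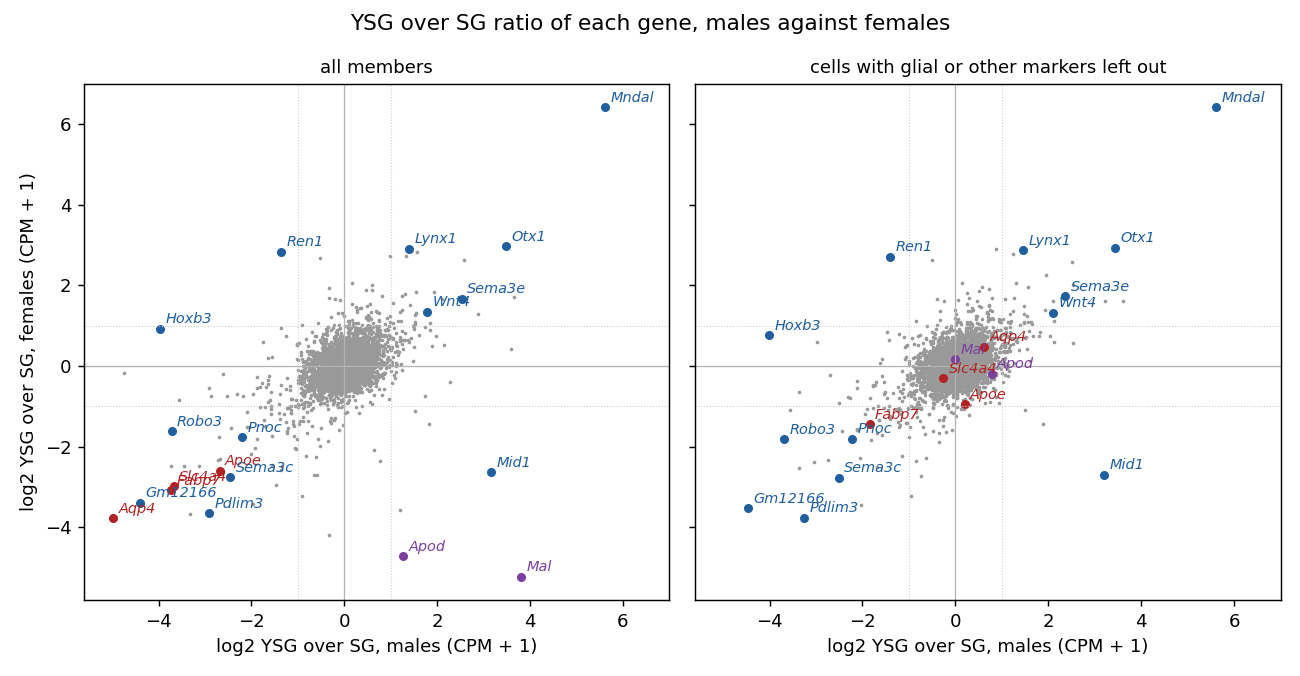
Each point is a gene, with the log2 ratio of YSG over SG in males on the x axis and in females on the y axis, for all members (left) and without members carrying markers of other cell types (right), dotted lines marking 2-fold. The astroglial genes in red and the oligodendrocyte genes in purple move towards 0 on the right, while Otx1, Sema3e, Pnoc and Robo3 stay in place.

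The gene with the widest gap was Mndal, an interferon-inducible gene of the nuclear HIN-200 family. It had 0 UMIs in both SG member sets and 195 and 703 UMIs in the YSG male and female members, which was 47.8 and 84.6 CPM. Against a floor of 3 UMIs in the SG library, YSG was at least 33.8-fold higher in males and at least 68.7-fold higher in females, while the exact interval of the fold starts lower, at 27.3 and 55.7. The gap was not particular to the members, since the other cells held 0.113, 47.0, 0.0356 and 94.1 CPM. Otx1, a homeobox transcription factor, was at 3.77, 51.9, 7.39 and 65.1 CPM, 13.8-fold (6.87 to 32.4) higher in YSG males and 8.81-fold (5.52 to 15) higher in YSG females. The other cells showed a gap in Otx1 as well, at 10.9, 58.5, 10.3 and 73.3 CPM. Both SG libraries were low and both YSG libraries high for these 2 genes at each of the 3 steps of the lineage examined.

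Secreted guidance and signalling genes were among those higher in YSG. Sema3e, a semaphorin that steers axons and vessels, was at 5.65, 37.5, 8.21 and 28.3 CPM in members. It was 6.64-fold (3.69 to 13.1) higher in YSG males and 3.44-fold (2.18 to 5.74) higher in YSG females. Here the member ratio was above that of the other cells, by 1.31 on the log2 scale in males (counting interval 0.48 to 2.15) and 1.32 in females (0.66 to 1.98). Wnt4, a secreted Wnt ligand, was at 14.6, 52.9, 13.5 and 36.0 CPM, 3.63-fold (2.48 to 5.47) higher in YSG males and 2.66-fold (1.85 to 3.93) higher in YSG females. Lynx1, a modulator of nicotinic acetylcholine receptors, was at 7.06, 20.1, 4.10 and 37.5 CPM, 2.85-fold (1.63 to 5.31) and 9.15-fold (4.91 to 19.3) higher. Caln1, a neuronal calcium-binding protein, was at 2.35, 41.4, 4.10 and 15.6 CPM, with YSG males highest. Syndig1l, Pxdn, Blvrb, Adck5 and the unnamed gene model Gm42047 were also over 2-fold higher in YSG in both sexes, with log2 ratios between 1.41 and 2.64. Hspa1a, a heat shock gene, was at 7.06, 22.8, 1.23 and 14.9 CPM, but its female log2 ratio of 2.83 was 0.56 without the marked cells and -0.09 among members without a Kcna1 UMI.

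Pnoc, the gene that set members apart most, was lower in YSG. SG stood 4.63-fold (4.10 to 5.24) above YSG among males and 3.41-fold (3.15 to 3.69) among females. In the early postmitotic cells the levels were 208, 83.4, 163 and 213 CPM, so YSG females stood above SG females at that step and below them among the members. In dividing cells Pnoc was at 13.9, 9.01, 20.2 and 10.9 CPM. The member ratio lay below that of the other cells by 1.36 on the log2 scale in males (interval of the difference -1.57 to -1.16) and by 1.98 in females (-2.12 to -1.83). Without Kcnk1 in the choice of cells the log2 ratios were -1.87 and -1.66, and without the marked cells -2.22 and -1.80. Ryr2 was likewise lower in YSG members, at 26.8, 11.5, 27.9 and 11.9 CPM, while the other cells held 2.56, 2.62, 1.73 and 2.90 CPM. Cadm2 was at 57.9, 24.5, 56.2 and 26.7 CPM, but in cells picked without Kcnk1 its male log2 ratio was -0.11 in place of -1.21, and without the marked cells its female ratio was -0.80 in place of -1.05.

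Robo3, a receptor that holds axons back from responding to midline repellents before they cross, was at 31.5, 1.47, 55.8 and 17.6 CPM. SG was 21.5-fold (9.36 to 60.5) higher in males and 3.18-fold (2.50 to 4.04) higher in females. In the early postmitotic cells the YSG male library was at 8.18 CPM while the others were at 93.4, 84.5 and 96.9 CPM. Those cells were picked by UMIs of Cntn2 and Robo3, so their Robo3 levels were partly fixed by the choice. The early set therefore cannot show whether Robo3 differed between the 2 female libraries at that step. In dividing cells Robo3 was at 7.05, 0.949, 11.6 and 3.11 CPM, with both YSG libraries the lower of their sex. Sema3c, another secreted semaphorin, was at 28.7, 4.41, 24.6 and 2.77 CPM, with both YSG libraries low at each step. Grb10, an adaptor that restrains growth factor signalling, was at 25.9, 5.88, 25.4 and 1.44 CPM. Eln, the gene of elastin, was at 36.2, 4.65, 47.2 and 8.54 CPM, and Islr2, an axon growth protein, at 35.3, 11.3, 31.6 and 4.93 CPM. For these 4 genes both SG libraries stood above both YSG libraries. Pdlim3, a cytoskeletal adaptor, was at 21.2, 1.96, 17.6 and 0.481 CPM in members and at 109, 1.36, 129 and 1.62 CPM in the other cells, so its gap was smaller in the members. Tgfb1i1, Enox2 and the gene models Gm12166, Gm7324 and Gm8797 were lower in YSG as well, with log2 ratios between -4.41 and -1.82. Gene models of this kind can share reads with near-identical copies, and how the counting treated them was not tested.

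**Figure D4:**
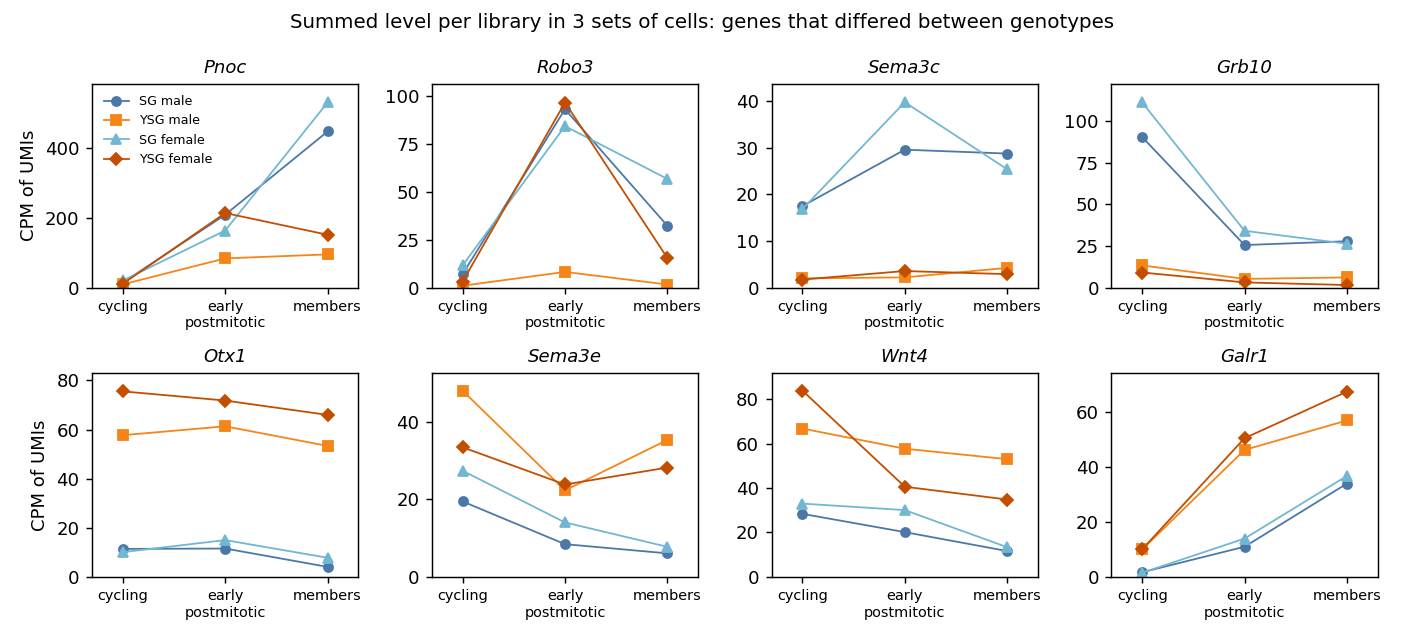
Each panel gives a gene's summed CPM in dividing cells, early postmitotic cells and members (markers of other cell types left out), with 1 line per library. Pnoc climbs towards the members in SG and not in YSG females, Robo3 stays near 0 in YSG males, and Otx1 and Wnt4 lie higher in both YSG libraries at every step.

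Several of the lowest ratios in YSG were of genes that astroglia express. Aqp4, the water channel of astrocytes, was at 84.3, 1.71, 25.9 and 0.962 CPM, a log2 ratio of -4.97 among males and -3.77 among females. Without the marked cells, which included 7 and 4 astroglial cells among the SG males and SG females, the ratios were 0.62 and 0.48, but Aqp4 was among the genes that marked those cells, so its loss was fixed by the choice. Apoe, a lipid carrier made by glia that was not used to mark cells, had ratios of -2.68 and -2.60 that became 0.20 and -0.94. Slc4a4, a glial bicarbonate transporter, had ratios of -3.67 and -2.98 with all members and of -0.27 and -0.30 without the marked cells. Fabp7, a fatty acid binding protein of radial glia and progenitors, was at 423, 31.1, 206 and 23.3 CPM and kept ratios of -1.85 and -1.44 without them.

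Potassium channel genes outside the rule lay towards YSG. Of the 37 potassium channel genes listed, 13 were measured, with median log2 ratios of 0.27 and 0.36 (males, females), beside 0.02 and -0.02 over all genes. Over 2-fold higher were 2 in males and 1 in females, and none was over 2-fold lower in either sex, against 1.17% and 1.14% of all genes higher. The lean was not particular to the members. The summed level of all 37 genes was 648, 812, 717 and 887 CPM in members and 407, 531, 442 and 587 CPM in the other cells. Kcnj6, the GIRK2 channel opened by G proteins, was at 29.7, 69.8, 26.3 and 68.2 CPM, 2.35-fold (1.79 to 3.14) higher in YSG males and 2.60-fold (2.0 to 3.42) higher in YSG females. Kcnk9, the TASK-3 leak channel of granule neurons, was at 8.0, 31.1, 13.5 and 26.1 CPM, and so passed the filter of 20 CPM in YSG alone. For Kcnj6 the YSG excess was larger still in the other cells, whose log2 ratios were 1.93 and 2.23. Among 15 sodium and calcium channel genes measured the medians were 0.08 and 0.05. Cacna1e, the R-type calcium channel, was at 32.0, 36.3, 20.5 and 88.1 CPM, high in YSG females alone. Scn3a, a sodium channel of immature neurons, was at 34.8, 18.9, 33.2 and 17.4 CPM, low in both YSG libraries.

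Presynaptic genes showed no common shift, and postsynaptic genes lay somewhat towards YSG. The 27 presynaptic genes measured had medians of -0.03 and 0.12, with 0 higher and 1 lower past 2-fold in males and 2 higher and 0 lower in females. Of all 7338 genes, 1.17% were higher and 1.36% lower in males, and 1.14% and 1.39% in females. Snap25 and Vamp2, both of the release machinery, differed little, with log2 ratios between -0.12 and 0.07. Nrxn3, a presynaptic adhesion molecule, was at 46.1, 16.9, 54.2 and 27.7 CPM, and Cplx2, which clamps vesicle release, was at 96.5, 104, 91.9 and 198 CPM, high in YSG females. The 15 postsynaptic genes had medians of 0.15 and 0.32. Dlgap1, a scaffold protein, was at 41.0, 69.8, 50.1 and 101 CPM, 1.70-fold (1.34 to 2.19) higher in YSG males and 2.03-fold (1.67 to 2.47) in YSG females. The 4 glutamate receptor genes measured beside Grin2b had medians of -0.02 and -0.10, led in level by the AMPA receptor gene Gria2 at 538, 413, 596 and 482 CPM. Of 4 GABA receptor genes measured, Gabbr2, a subunit of the metabotropic GABA receptor, was at 28.7, 10.5, 35.3 and 5.05 CPM, with both YSG libraries low. The GABA receptor medians were -0.41 and -0.26, but 0.03 and -0.19 in cells picked without Kcnk1.

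Within the members, axon guidance and early differentiation genes tended towards SG. The 24 axon guidance genes measured of 42 had medians of -0.36 and -0.22, and 14 were lower in YSG in both sexes and 6 higher, where 28.9% of all 7338 genes were lower in both and 28.1% higher. Past 2-fold, 5 were lower in males and 3 in females, with none higher, against 1.36% and 1.39% of all genes lower. Beside Robo3 and Sema3c, the ephrin ligand Efnb2 was at 52.2, 25.5, 63.6 and 30.9 CPM, 2.05-fold (1.56 to 2.71) and 2.06-fold (1.67 to 2.52) lower in YSG, and the semaphorin co-receptor Nrp1 was at 17.9, 8.08, 27.9 and 13.5 CPM. Ephb2, an ephrin receptor, went the other way at 63.1, 122, 85.4 and 121 CPM. The 15 early postmitotic genes had medians of -0.24 and -0.28. Their summed level was 12244, 10386, 12464 and 11570 CPM in members. In the other cells it was 5939, 7731, 5567 and 7669 CPM, higher in YSG of each sex. Of 26 genes of the axon and dendrite cytoskeleton 17 were lower in YSG in both sexes, with medians of -0.20 and -0.16, but in cells picked without Kcnk1 10 were, with medians of -0.08 and -0.06. The neurofilament genes Nefl, at 271, 54.1, 263 and 162 CPM, and Nefm, at 447, 127, 465 and 231 CPM, were lowest in YSG males. Crmp1, a mediator of semaphorin signalling, was at 594, 378, 581 and 381 CPM. Nefl in the other cells was at 54.1, 27.6, 51.5 and 93.9 CPM, so the 2 female libraries stood in the opposite order outside the members. The summed level of all 28 cytoskeleton genes listed was 5356, 6748, 5055 and 7056 CPM in the other cells, higher in YSG of each sex. The medians of adhesion and migration genes were -0.28 and -0.11, and 0.07 and about 0 in cells picked without Kcnk1.

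Transcription factors of granule maturation were level as a group, with medians of 0.06 and 0.05 over 23 genes. Camk4, a calcium-dependent kinase of this list, was at 11.8, 29.4, 11.9 and 33.1 CPM, 2.50-fold (1.61 to 4.01) and 2.78-fold (1.89 to 4.23) higher in YSG. The other cells showed a wider Camk4 gap, at 2.69, 16.7, 3.18 and 18.7 CPM. Myt1l, which represses non-neuronal genes, was at 108, 173, 111 and 192 CPM in members. In the other cells the Myt1l gap was wider, at 17.7, 91.0, 12.2 and 95.8 CPM, so the members of the 2 genotypes were closer than the rest by 1.61 on the log2 scale in males (interval of the difference -1.85 to -1.38) and 2.09 in females (-2.30 to -1.88). Bhlhe22 was at 55.5, 121, 67.7 and 102 CPM. Nfix, a nuclear factor that drives granule differentiation, was lower in YSG, at 1066, 626, 1145 and 604 CPM, 1.70-fold (1.61 to 1.80) and 1.89-fold (1.81 to 1.98). Cbln1, a synapse organiser of parallel fibres, was at 22.1, 21.3, 20.1 and 51.9 CPM, high in YSG females alone.

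Hedgehog and progenitor genes went different ways. Over 11 hedgehog and progenitor genes measured the medians were 0.39 and 0.16, and Sfrp1, a secreted Wnt antagonist of progenitors, was at 180, 516, 175 and 376 CPM. Sfrp1 was 2.86-fold (2.57 to 3.20) and 2.15-fold (1.94 to 2.38) higher in YSG, and the other cells showed a like gap at 268, 628, 234 and 517 CPM. Ccnd2, a cyclin of progenitors, was at 673, 1128, 754 and 1002 CPM, about as high as in the other cells, at 736, 1168, 703 and 1002 CPM. The hedgehog targets Ptch1, at 136, 157, 131 and 105 CPM, and Gli1, at 3.77, 4.65, 10.3 and 3.85 CPM, were lower in YSG females than in SG females and not in males. The Gli1 levels rested on 8, 19, 25 and 32 UMIs. In the other cells both genes were lower in YSG of each sex. Ptch1 was at 309, 221, 388 and 206 CPM there, and Gli1 at 36.2, 21.7, 46.0 and 20.2 CPM. Sox2, a stem cell factor, was lower in YSG, at 26.8, 17.9, 31.6 and 8.30 CPM, and at 12.6, 8.18, 17.2 and 7.0 CPM without the marked cells. The 7 cell cycle genes measured had medians of 0.41 and 0.30. Among them Mcm2, Mcm3 and Mcm6 reached 20 CPM in YSG members alone, so the filter favoured YSG in these medians. Yap1 itself had 6, 0, 3 and 0 UMIs in the members, none in either YSG set, and the exact intervals of the fold of SG over YSG start at 2.26 in males and 1.41 in females. Which exons are floxed is not given in the sources used here, so whether the counted 3' reads lie in the deleted stretch was not tested.

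Immediate early genes, which respond to activity and to tissue dissociation, were lower in YSG members. Of 16 measured, 11 were lower in both sexes, where 28.9% of all 7338 genes were, with medians of -0.46 and -0.44. Past 2-fold, 1 was higher in males, against 1.17% of all genes. Egr1 was at 367, 221, 310 and 162 CPM and Fos at 233, 157, 152 and 101 CPM. In the other cells the Egr1 ratios were close to these, at -0.73 and -1.01 against -0.73 and -0.93 in members, while the Fos ratios were 0.08 and 0.17 there against -0.57 and -0.59. In cells picked without Kcnk1 the list's medians were 0.17 and -0.46, so the male direction turned. A part of dissociation in these values was not tested. The 11 heat shock and stress genes measured had medians of 0.21 and 0.16, and 0.22 and -0.04 without the marked cells. The 6 late granule genes measured of 18 had medians of 0.01 and 0.29, and the 3 class I MHC genes -0.07 and -0.26. A mixed list of Hippo pathway genes and genotype checks had medians of 0.25 and 0.19 over 4 genes measured. Smo was 1 of these 4, so the medians do not describe the Hippo pathway alone.

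**Figure D5:**
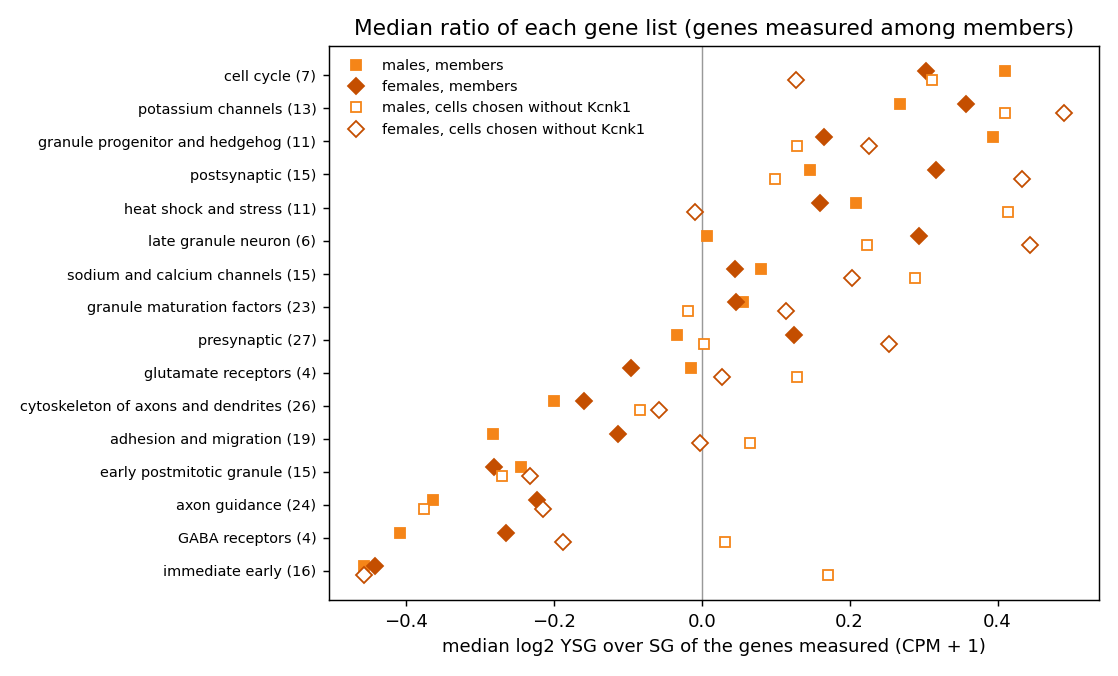
Filled symbols give the median log2 ratio of YSG over SG over the measured genes of each list (their number among members in brackets) in male (square) and female (diamond) members, and open symbols the same for cells picked without Kcnk1. Potassium channels, the hedgehog list and postsynaptic genes lie right of 0 in all 4 symbols, axon guidance and early postmitotic genes left of 0, and the male immediate early median changes side.

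Within the members, the cells with a Kcna1 UMI formed a further mixture. This split was made after the values were seen, and it numbered 57, 103, 53 and 492 cells. Among the genes that led in the Kcna1 cells were Enpp6, Cldn11, Tnr and Cnp, all of the oligodendrocyte lineage, with lowest log2 ratios over the 4 libraries between 2.03 and 3.34. Cnp, an enzyme of myelin-forming cells, was at 81.7, 165, 237 and 18.8 CPM in the members with Kcna1 and at 7.40, 7.0, 5.44 and 3.85 CPM in those without. The oligodendrocyte level was lowest in YSG females, whose Kcna1 cells were the most numerous. Beside these, Cadm2 was at 102, 45.8, 127 and 37.8 CPM with Kcna1 and 44.4, 18.1, 33.2 and 15.6 CPM without, and Nfasc at 155, 88.4, 159 and 50.6 CPM against 38.2, 24.5, 35.9 and 24.3 CPM. Nhlh1, an early postmitotic factor, was lower with Kcna1 in all 4 libraries, at 159, 141, 144 and 115 CPM against 202, 189, 193 and 148 CPM. Genes that myelinating cells also express cannot be told apart here from neuronal ones in the 3 libraries with few Kcna1 cells.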

How the data were processed

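The deposited matrices hold UMI counts per gene and cell, which the authors made with Cell Ranger 5.0.1, per the file headers, against the mm10 build, per the submitters' processing notes, from 10x 3' libraries. They list 32286 features. The 4 libraries held 58478914 to 86906706 UMIs in 7289 to 8505 cell barcodes. Members and gene lists were chosen with earlier results of these data known.

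For members, UMIs were summed per library, scaled to CPM and compared as log2 ratios with a pseudocount of 1 CPM, for genes that reached 20 CPM in any member set. A gene was called beyond 2-fold. With 1 library per genotype and sex no test was made; cells are not replicates. Intervals are exact (Clopper-Pearson for shares, conditional binomial for folds, 95%) and cover counting error only. Folds against 0 UMIs used a floor of 3 counts per library. The ratio code was tested on simulated data.

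Named genes were members of the lists, the 12 highest and 12 lowest ratios shared by both sexes, the 12 highest over the other cells, the 8 whose ratio differed most from the other cells in each direction, and the 6 that differed most between sexes in each direction. Some of these genes are not reported here. Repeating the first choice without marked cells of other types, the choice of those cells, the members without Kcna1 and the cells picked without Kcnk1 were added after the data were seen. Doublets were scored with Scrublet (scanpy 1.11.5) and kept in; leaving out the highest 6% of scores was an alternative. Python 3.11.15, numpy 2.4.6, scipy 1.17.1, pandas 2.3.3 and matplotlib 3.10.9 were used.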

Additional observations from a re-analysis of the deposited data

Results flagged for a closer look

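In 5 of the named genes the YSG over SG log2 ratio passed 2-fold in opposite directions in the sexes; the difference was not tested. Ren1, the gene of renin, was at 2.82, 0.49, 6.98 and 55.9 CPM in members (males first, SG then YSG), a ratio of -1.36 in males and 2.84 in females. Mid1, a microtubule-associated ubiquitin ligase, was at 2.35, 29.2, 16.4 and 1.80 CPM, a ratio of 3.17 and -2.63. Gm47283 was at 77.7, 277, 181 and 65.8 CPM, a ratio of 1.82 and -1.45. These 3 kept opposite signs without members carrying markers of other cell types. They were not particular to the members. In the other cells the ratios were -1.59 and 5.05 for Ren1, 2.47 and -2.92 for Mid1, and 1.73 and -1.60 for Gm47283. Mid1 is placed on the X chromosome and Gm47283 on the Y chromosome.

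Mal and Apod, both expressed by myelin-forming cells, had ratios of 3.81 and -5.23, and of 1.27 and -4.72. Without the marked cells they were 0.00 and 0.17, and 0.78 and -0.19.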

How the results depend on the processing

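No paired analysis was possible because each group holds a single library. Requiring 6 UMIs of the rule genes gave share folds of 1.51 in males and 5.18 in females, and thinning to 6000 UMIs gave 5.95 in females. Without Grin2b the female fold was 5.37, and without Kcnk1 the folds were 1.08 and 3.45. Leaving out members with 3 UMIs of any marker list gave 3.04 and 5.38, but removed 80.4 to 86.7% of the members, since those lists hold genes of the lineage. Genes higher in YSG males numbered 154 at 6 UMIs and 153 without Kcnk1. Genes higher and lower were 1053 and 719 in males and 760 and 543 in females with the marker lists left out, 260 and 299, and 232 and 244, at 5 CPM, and 574 and 546, and 500 and 418, with no filter.

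The median of immediate early genes in males turned to 0.072 at 6 UMIs and 0.17 without Kcnk1. That of oligodendrocyte precursor markers in females turned to 0.83 and 0.029. GABA receptors in males turned to 0.0060 with no mitotic UMI and 0.032 without Kcnk1, oligodendrocyte markers in males to -0.13 with no mitotic UMI, and astroglial markers in males to 0.046 without marked cells and 0.044 without Kcnk1. With the marker lists left out Pla2g7 was 2.02 in females and Sema3c 1.84 in males. Without marked cells Aqp4 was 0.62 and 0.48, Apoe 0.20 in males, and Pla2g7 0.75, Mal 0.17 and Mog 0.17 in females. Without Kcna1 cells Hspa1a was -0.090 and Mal 0.31 in females. Without Kcnk1 Aqp4 was 0.044 and Apoe 0.67 in males. The marker-list alternative left few cells by construction, and for the others the cause was not tested. Of all other values of named genes under the alternatives, 1388 stayed within the counting error of the reported value and 186 moved beyond it; a change of sign was counted apart only where the reported ratio was beyond 2-fold.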
